A study of Homo sapiens with 6 samples.

Results

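Genes of retinoic acid signalling were examined in A375 melanoma cells with and without a RIPK4 knockout. They are the retinoic acid receptors RARA, RARB and RARG, the retinoid X receptors RXRA and RXRB, the binding protein CRABP2, the retinol transporter STRA6, and the enzymes ALDH1A3 and DHRS3. These are 9 of the 20851 genes listed in the deposited table, and were taken as the rows whose gene name equals one of these symbols. The set was selected on the difference in raw counts between the 2 groups, RARB above all, so the values of the 9 genes in this comparison are given as a description, without a test.

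RNA-seq was performed on 3 biological replicates each of A375 RIPK4.KO cells and of their control, A375 neg. A375 is an established human melanoma line that carries a BRAF mutation. In A375 RIPK4.KO the gene of RIPK4, a receptor-interacting serine/threonine kinase, was targeted with CRISPR/Cas9 and a lentiviral guide RNA, and A375 neg is the matching control, labelled GFP control and made with a guide that has no human target. Both were grown in RPMI medium with fetal bovine serum, and are also called knockout and control below. All A375 RIPK4.KO libraries come from 1 clone (clone #1), so that the loss of RIPK4 and differences between clones cannot be told apart in any of the values below, and no retinoid treatment is named for either group.

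Retinol enters cells with the help of STRA6 and is oxidized first to retinal and then, by aldehyde dehydrogenases such as ALDH1A3, to retinoic acid, whereas DHRS3 returns retinal to retinol. CRABP2 carries retinoic acid to the nucleus, where heterodimers of a RAR and an RXR sit on paired half-sites in DNA and switch between a co-repressor and a co-activator complex when the ligand binds. RARB and the retinoic acid hydroxylase CYP26A1 are textbook target genes of these heterodimers, each with a response element close to its start site, and loss of RARB expression is a well-known feature of many tumours.

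The stretch of DNA just before a start site of RARB is shown because the largest difference among the 9 genes was in this receptor, and because the exon that the deposited table gives for RARB (chromosome 3, 25428263 to 25428888, GRCh38) begins at exactly this start site. The corresponding stretch of CYP26A1 is shown for comparison, since it holds an element of the same kind. Both run over the 150 bases before the start site, 5′ to 3′ on the strand of the gene, and were taken from RefSeq (GRCh38.p14). Capitals mark the 2 half-sites of a direct repeat with 5 bases between them.
RARB, chr3:25428113-25428262, plus strand: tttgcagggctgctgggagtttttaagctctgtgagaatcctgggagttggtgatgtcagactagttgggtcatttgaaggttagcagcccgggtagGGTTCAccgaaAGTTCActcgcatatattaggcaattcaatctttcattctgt
CYP26A1, chr10:93073743-93073892, plus strand: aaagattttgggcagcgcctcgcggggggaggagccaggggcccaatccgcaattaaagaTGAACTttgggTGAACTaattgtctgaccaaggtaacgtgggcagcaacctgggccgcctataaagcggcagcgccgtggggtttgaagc

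In RARB the repeat lies at 25428210 to 25428226 of chromosome 3, with 36 bases between it and the start site. In CYP26A1 it lies on the opposite strand at 93073803 to 93073819 of chromosome 10, with 73 bases between it and the start site. The search was for AGGTCA or GGGTCA or GGTTCA or AGTTCA, followed after 5 bases of any kind by another of these, on both strands of windows from 250 bases before to 50 bases after a start site. Such a repeat was in 31 of all 35116 RefSeq windows (0.0883%), and in 1 of the 22 windows of the 9 genes, the one of RARB shown above. RARB has 3 other windows, at start sites 24829321, 25340802 and 25458310, in which these letters were not found. With a spacer of 1 or of 2 bases the repeat was in 0.131% and 0.0399% of windows, and in none of the 22. A match of letters is a description of the sequence only, and binding of a receptor was not measured. Of the 29 genes with the 5-base repeat in a window, 8 passed the filter on low counts in these cells, RARB among them. Of the 7 others 1 was called by the rule given below, which 9.22% of all genes tested met, and nothing is read from this count. It was CYB5R2 (log2 fold change 0.95, standard error 0.07), higher in A375 RIPK4.KO and named after its value was seen.

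Library totals ran from 21882863 to 26694140 counts. RIPK4 itself, the targeted gene, had 319, 368 and 404 raw counts in the control and 42, 51 and 61 in the knockout (log2 fold change −2.69, standard error 0.16), a difference in the direction of the labels. A375 RIPK4.KO replicate 2 stood somewhat apart from the other libraries. The chi-square per gene between it and the other A375 RIPK4.KO libraries was 20.5 and 24.6, against 6.39 to 9.03 for every other pair within a group. Of markers of the melanocyte lineage, SOX10 had 8844 to 10056 raw counts in the control and 7448 to 7858 in the knockout (log2 fold change −0.20). MITF had 440 to 535 in the control and 288 to 376 in the knockout (−0.44). PMEL had at most 22 and TYRP1 at most 8 in any library. The summed level of the 5 listed lineage markers was 385 to 416 CPM (counts brought to 1 common library total) in the control and 332 to 349 CPM in the knockout, and 1 of the 4 tested was called, S100B, which was lower. The lists for keratinocytes, fibroblasts, leukocytes and endothelium summed to at most 75.2, 5.30, 2.01 and 19.7 CPM in any library. Of their 7 tested genes 1 was called higher (KDR) and 4 lower (KRT14, LUM, LYZ and PECAM1). LUM, LYZ and PECAM1 passed the filter on low counts through A375 neg, with at most 11, 13 and 5 raw counts in A375 RIPK4.KO. Of all genes tested 9.22% were called, and nothing is read from these marker counts. The leukocyte marker PTPRC had at most 3 counts in any library. The part of these markers in the values below was not tested. In bulk RNA, fewer cells that express a gene and less RNA per cell cannot be told apart.

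Counts were normalized with edgeR's TMM method and compared with its quasi-likelihood test. Of the 20851 listed genes, 14443 passed the filter on low counts, among them 8 of the 9 genes. RXRB did not pass it. A gene is called where the Benjamini-Hochberg adjusted p is below 0.05 with a change of at least 1.5-fold. By this rule 2 of the 8 genes were called, RARB as higher and RARG as lower in A375 RIPK4.KO, where 9.22% of all genes tested were called in either direction, 4.47% higher and 4.75% lower. For 5 of the 8 the ranges of the 2 groups were apart in normalized counts, as they were for 36.5% of all genes tested. Because the set was chosen on this very comparison, nothing is read from these shares. RARB passed the filter through the A375 RIPK4.KO libraries: all 3 of them but only 2 of the A375 neg libraries were over the limit of 0.408 CPM. STRA6 passed through the A375 neg libraries, with 1 of the A375 RIPK4.KO libraries over that limit.

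**Figure D1:**
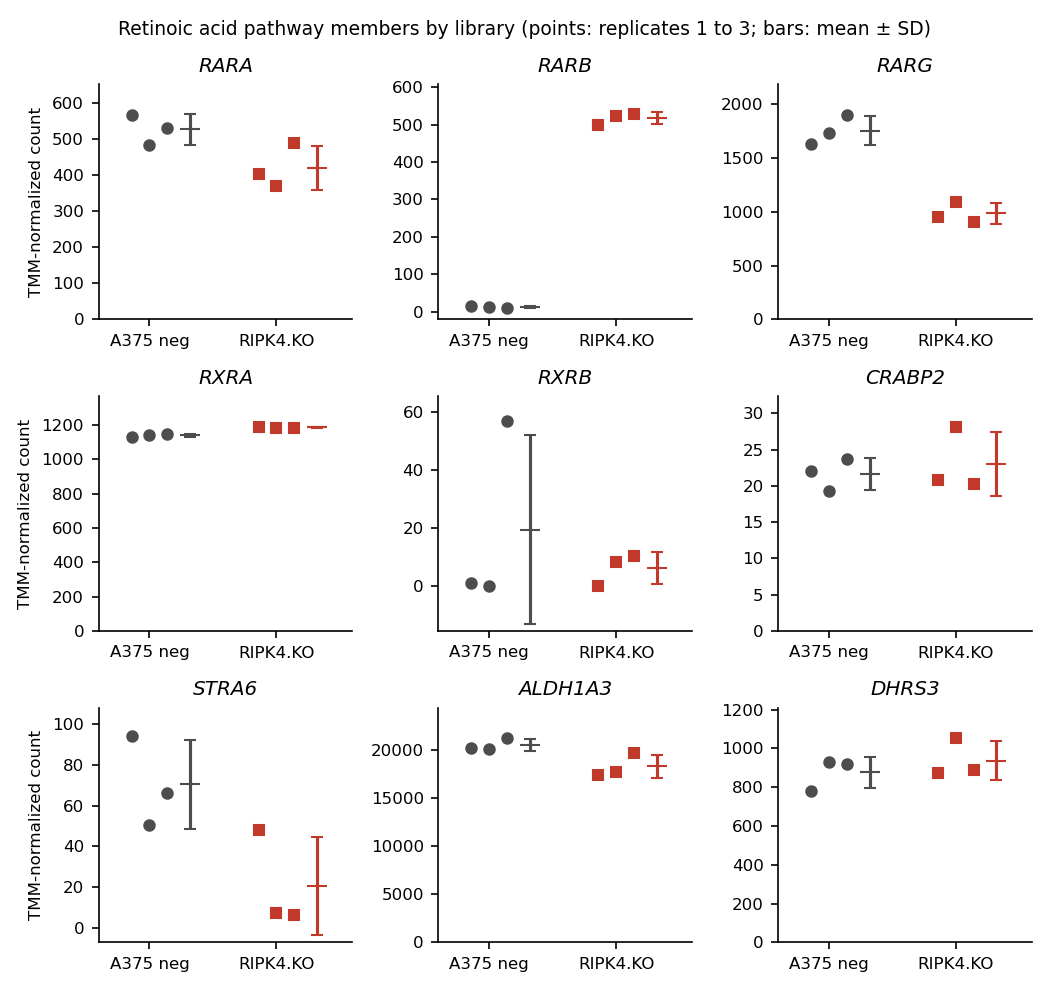
TMM-normalized counts (y axis, linear, a different scale in each panel) of the 9 genes in the 3 A375 neg (grey circles) and 3 A375 RIPK4.KO libraries (red squares), in the order of replicates 1 to 3, with the group mean and SD beside them. RARB lies between 8.53 and 14 in the control and between 499.5 and 528 in the knockout, whereas RARA, CRABP2 and DHRS3 overlap between the groups and the RXRB row is erratic.

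RARB showed by far the largest difference of the set. Replicates 1 to 3 of the control held 14, 14 and 9 raw counts of it, and those of the knockout 457, 502 and 521. The gene was thus rare in every control library and well counted in every knockout library, with no overlap. Its normalized count was 11.8 ± 2.89 (SD, n = 3) in the control and 517 ± 15.5 (SD, n = 3) in the knockout, a log2 fold change of 5.44 (standard error 0.18), or 43.4-fold. A higher log2 fold change was found for 21 of the 14443 genes tested. Among the 452 genes that were called higher and averaged 50 raw counts or more, RARB was 5th. The size of the fold change was 5.25 on the log2 scale when replicate 3 of the control was left out, 5.57 when replicate 1 of the control was, and 5.43 when replicate 2 of the knockout was. RARB spans chromosome 3 from 24829321 to 25597932 on the plus strand. The only listed gene that overlaps it is TOP2B, by 28 bases at the end of both genes. The deposited counts are per gene, so that the start site from which the transcripts arose cannot be read from them.

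RARG, the isotype best known from epithelial and skin cells, had 1627, 1881 and 1999 raw counts in the control and 871, 1045 and 894 in the knockout. Every knockout library was below every control library. The normalized count was 1751 ± 135 and 983 ± 96.0 (SD, n = 3 each), which is 1.78-fold lower in the knockout (−0.83 on the log2 scale, standard error 0.09). Leaving out each library in turn gave −0.91 to −0.77. RARG lies on chromosome 12 from 53210569 to 53232209.

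RARA, the most widely expressed isotype (chromosome 17, 40309180 to 40357643), had 567, 525 and 560 raw counts in the control and 368, 355 and 482 in the knockout. After normalization the highest knockout library (489) was above the lowest control library (484), so that the groups overlapped. The means were 527 ± 41.8 and 420.5 ± 61.2 (SD, n = 3 each), a log2 fold change of −0.33 (standard error 0.12), and the gene was not called. The antisense gene RARA-AS1, which overlaps it by 2270 bases, had 20 to 44 counts per library.

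RXRA, the common partner of all 3 RARs (chromosome 9, 134326455 to 134440585), was the steadiest gene of the set. It had 1128, 1237 and 1213 raw counts in the control and 1089, 1132 and 1168 in the knockout. Normalized, these are 1139 ± 11.0 and 1185 ± 4.48 (SD, n = 3 each), a log2 fold change of 0.06 (standard error 0.07). The replicates lay so close together that the groups did not overlap in spite of the small difference, and the gene was not called.

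RXRB could not be read from these counts. Its gene lies in the major histocompatibility complex on chromosome 6 (33193588 to 33200853), a region that the assembly holds in several alternate versions, and the table lists it as 5 rows on as many sequences. The row named RXRB had 1, 0 and 60 raw counts in the control and 0, 8 and 10 in the knockout. Summed over the 5 rows there were 10, 47 and 136 counts in the control and 7, 17 and 15 in the knockout. Replicates of 1 group thus differed more than the groups did, and neither a level nor a direction is given for RXRB. RXRG, the third retinoid X receptor, had 3, 2 and 1 counts in the control and 7, 3 and 5 in the knockout, too few to be tested.

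**Figure D2:**
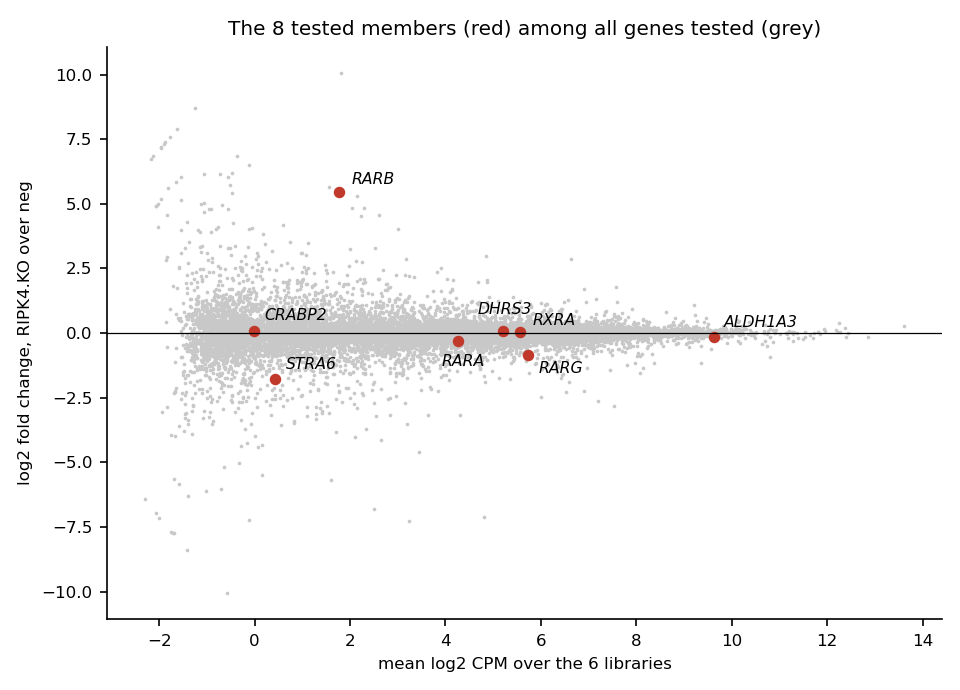
Log2 fold change of A375 RIPK4.KO over A375 neg (y axis) against the mean log2 CPM over the 6 libraries (x axis) for the 14443 genes tested (grey) and the 8 tested genes of the set (red, named). RARB stands at 5.44, far above the cloud of genes of its level, whereas the other 7 lie between −1.79 (STRA6) and 0.10 (DHRS3).

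Levels of the isotypes can be compared only per length, and are given as CPM per kilobase of the exon union of the gene in GENCODE 29. In A375 neg RARG was at 13.9 ± 1.07, RARA at 4.54 ± 0.36 and RARB at 0.130 ± 0.032 (SD, n = 3 each). In A375 RIPK4.KO the levels were 7.81 ± 0.76 for RARG, 5.70 ± 0.17 for RARB and 3.62 ± 0.53 for RARA. RARB thus passed from the last to the second place among the 3 isotypes, above RARA in every A375 RIPK4.KO library. Its share of the summed level of the 3 RARs was 0.477% to 0.859% in A375 neg libraries and 32.7% to 33.8% in A375 RIPK4.KO libraries. The share of RARG was 72.0% to 76.3% in the control and 41.8% to 49.2% in the knockout. The sum itself was 18.6 ± 0.98 in the control and 17.1 ± 0.56 in the knockout (SD, n = 3 each), and the ranges of 18.0 to 19.7 and 16.5 to 17.6 did not overlap. With the longest coding transcript as the length, the mean RARB share was 0.503% and 26.3%, and the sum 31.3 ± 1.72 and 26.0 ± 0.90. In replicate 3 of A375 RIPK4.KO, RARB (6.98) was then close to RARA (6.55).

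**Figure D3:**
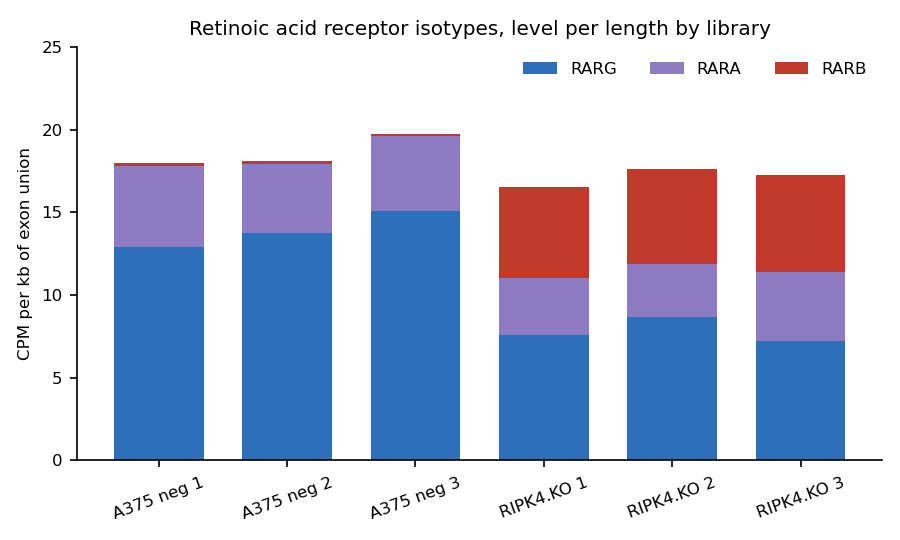
Level per length (y axis, CPM per kilobase of exon union, from 0) of RARG (blue), RARA (purple) and RARB (red), stacked for each of the 6 libraries (x axis). RARB is a thin line at the top of the 3 A375 neg bars and takes 32.7% to 33.8% of the 3 A375 RIPK4.KO bars, which are slightly shorter in all.

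CRABP2, which hands retinoic acid to the receptors (chromosome 1, 156699606 to 156705784), was rare in both groups. It had 22, 21 and 25 raw counts in the control and 19, 27 and 20 in the knockout. The groups overlapped, with normalized means of 21.7 ± 2.19 and 23.1 ± 4.43 (SD, n = 3 each) and a log2 fold change of 0.09 (standard error 0.33).

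STRA6 is the membrane receptor that takes up retinol from its carrier in the blood (chromosome 15, 74179466 to 74212259). It had 94, 55 and 70 raw counts in the control and 44, 7 and 6 in the knockout. All 3 knockout libraries were below the controls, but replicate 1 lay close to them and far from replicates 2 and 3. The normalized means were 70.3 ± 21.9 and 20.5 ± 23.9 (SD, n = 3 each), with a log2 fold change of −1.79 (standard error 0.75), and STRA6 was not called. Without A375 RIPK4.KO replicate 1 the log2 fold change was −3.37 and the gene was called, and it was also called by DESeq2 (−1.78) and with a replicate block (−2.16).

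ALDH1A3, the dehydrogenase that makes retinoic acid from retinal, was the most abundant gene of the set by a wide margin. It had 20157, 21800 and 22357 raw counts in the control and 15925, 16957 and 19379 in the knockout. Normalized, every knockout library was below every control library, at 20475 ± 620.5 against 18252 ± 1219 (SD, n = 3 each). The log2 fold change was only −0.17 (standard error 0.07), and the gene was not called. ALDH1A3 lies on chromosome 15 from 100879831 to 100916626, and its antisense gene ALDH1A3-AS1, overlapping it by 24284 bases, had 18 to 57 counts per library.

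DHRS3, the reductase that turns retinal back to retinol and is itself known as a gene induced by retinoic acid, had 783, 1007 and 969 raw counts in the control and 797, 1009 and 877 in the knockout. The groups overlapped. The normalized means were 876 ± 81.1 and 938 ± 100.3 (SD, n = 3 each), a log2 fold change of 0.10 (standard error 0.10). DHRS3 lies on chromosome 1 from 12567910 to 12618210.

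Ordered by level per kilobase of exon union, A375 neg had ALDH1A3 first (145 ± 4.38 CPM per kilobase), followed by RARG (13.9 ± 1.07), DHRS3 (11.8 ± 1.09), RARA (4.54 ± 0.36), RXRA (4.19 ± 0.04), CRABP2 (0.803 ± 0.081), STRA6 (0.373 ± 0.116) and RARB (0.130 ± 0.032), with RXRB left out. Only RARA and RXRA had overlapping ranges among neighbours in this order. In A375 RIPK4.KO the order was ALDH1A3 (129 ± 8.60), DHRS3 (12.6 ± 1.35), RARG (7.81 ± 0.76), RARB (5.70 ± 0.17), RXRA (4.36 ± 0.02), RARA (3.62 ± 0.53), CRABP2 (0.855 ± 0.164) and STRA6 (0.109 ± 0.127), and no neighbours had overlapping ranges. The place of RXRA depends on the length used, since its exon union (11083 bases) is much longer than its longest coding transcript (1846 bases). With the latter it stood at 25.1 ± 0.24 in the control and 26.2 ± 0.10 in the knockout, next after ALDH1A3 in both groups by the means.

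Other genes of the pathway were taken from 8 lists of 88 genes, of which 62 are listed and 51 passed the filter. Of these 51, 2 rose and 8 fell in A375 RIPK4.KO by both limits (19.6%, against 9.22% of all genes tested), and the other 41 were not called. Their median log2 fold change was −0.13 and that of all genes tested −0.0047. Without the limit on the fold change, 7 were higher and 11 lower, where 1284 and 1261 of all 14443 genes tested were. None of these counts shows that the lists stand apart from other genes. The lists were chosen with earlier results of these data known. The adjusted p values given below for their genes are thus part of a description, not an independent test.

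Of the 19 tested response genes, known to be induced by retinoic acid in one cell type or another, 2 rose, 2 fell and 15 were not called. Of all genes tested 9.22% were called, and nothing is read from this count. One of the genes that rose, HIC1, a zinc-finger transcriptional repressor, had 0, 7 and 4 raw counts in the control and 71, 58 and 67 in the knockout (log2 fold change 4.25, standard error 0.55). No A375 neg library was over the limit of 0.408 CPM, so that HIC1 passed the filter only through the libraries in which it was high, and its values are given as a description. Its log2 fold change was 3.71 without A375 neg replicate 1 and 5.06 without A375 neg replicate 2. GPRC5B, an orphan receptor of the retinoic acid-inducible family, rose from 49, 76 and 106 to 267, 317 and 303 counts (2.08, standard error 0.22, adjusted p = 7.27e-05). Its relative GPRC5A, the founding member of that family, moved the other way, from 9564, 9392 and 9869 to 5128, 3781 and 5095 counts (−0.91, standard error 0.12, adjusted p = 5.47e-04). BHLHE40, a clock-linked repressor, fell from 297, 370 and 401 to 147, 230 and 236 counts (−0.67, standard error 0.17, adjusted p = 0.018). It was no longer called when replicate 2 or 3 of the control or replicate 1 of the knockout was left out, at −0.66, −0.58 and −0.50. The 4 tested HOXB genes of this list, classical targets in the embryo, ranged from −0.54 (HOXB5) to −0.096 (HOXB4) in log2 fold change, and none was called. TGM2 (0.16), MEIS1 (0.13) and PLAAT4 (0.18) were not called either. By the adjusted p alone, 4 of the 19 genes were higher and 3 lower, where 1284 and 1261 of all 14443 genes tested were. This adds RAI14 (0.52, adjusted p = 2.57e-04) and FOXA1 (0.58, adjusted p = 0.025) as higher and HOXB3 (−0.49, adjusted p = 0.039) as lower. These added genes stayed within the limit of 1.5-fold.

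Enzymes that break down retinoic acid were rare in both groups. CYP26A1, with the element shown above in 1 of its windows, had 5, 1 and 5 raw counts in the control and 7, 6 and 3 in the knockout, which is too low for the test. CYP26B1 had 26, 44 and 39 counts in the control and 17, 17 and 11 in the knockout, and fell (log2 fold change −1.12, standard error 0.35, adjusted p = 0.049). This call was lost without any 1 of the 6 libraries (−1.29 to −0.92), by DESeq2 (−1.13), without the filter (−1.12) and with a replicate block (−1.12).

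Among binding proteins, RLBP1, which carries retinal in the retina, had 36, 38 and 32 counts in the control and 5, 16 and 12 in the knockout. It was called lower (log2 fold change −1.54, standard error 0.40). Replicate 1 of the knockout was under the limit of 0.408 CPM. RLBP1 thus passed the filter through the control libraries, in which it was high, and its values are given as a description. It was called without A375 RIPK4.KO replicate 2 (−1.91), but not without any of the other libraries (−1.62 to −1.22). FABP5, which can carry retinoic acid to receptors other than the RARs, had 917, 1055 and 1087 counts in the control and 1176, 1494 and 1358 in the knockout. The difference was 0.53 on the log2 scale (standard error 0.09, adjusted p = 0.0015), under the limit of 1.5-fold, and passed it without A375 RIPK4.KO replicate 1 (0.60).

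None of the 4 tested genes of retinol and retinal oxidation was called, where 9.22% of all genes tested were, and nothing is read from this count. RDH10, the retinol dehydrogenase of the first step, had 330, 328 and 368 counts in the control and 295, 321 and 352 in the knockout (log2 fold change 0.05, standard error 0.11). ALDH1A1, a relative of ALDH1A3, had 3, 4 and 4 counts in the control and 6, 4 and 10 in the knockout. ALDH1A3 was thus well counted and ALDH1A1 was not. LRAT, which stores retinol as retinyl ester, had 420, 400 and 366 counts in the control and 268, 246 and 292 in the knockout. The difference of −0.42 on the log2 scale (standard error 0.12, adjusted p = 0.030) stayed within the limit of 1.5-fold, so that it was not called.

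Of the 10 tested nuclear receptors that pair with an RXR, 3 were called lower and none higher. Of all genes tested, 4.75% were called lower and 4.47% higher, and nothing is read from this count. Without the limit on the fold change, 3 were lower and 2 higher, where 1261 and 1284 of all 14443 genes tested were. Nothing is read from this count either. The 2 higher receptors were PPARD (log2 fold change 0.36, adjusted p = 0.036) and NR1H2 (0.31, adjusted p = 0.029). PPARG, the receptor of fat cell differentiation, had 2143, 2281 and 2089 counts in the control and 890, 1103 and 1041 in the knockout (log2 fold change −0.97, standard error 0.08, adjusted p = 9.11e-06). NR4A1, an immediate-early orphan receptor, fell from 1838, 1872 and 2077 to 780, 779 and 910 counts (−1.10, standard error 0.08, adjusted p = 4.23e-06). NR4A2, its relative, fell from 84, 117 and 148 to 27, 26 and 27 counts (−1.98, standard error 0.25, adjusted p = 2.32e-04). Of the 11 tested co-regulators, 1 was called, TBL1X, a subunit of the NCOR co-repressor complex, which fell from 3194, 3401 and 3139 to 1174, 1191 and 1165 counts (−1.33, standard error 0.07, adjusted p = 2.32e-07). The co-repressor NCOR1 itself had a log2 fold change of −0.05 and was not called.

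**Figure D4:**
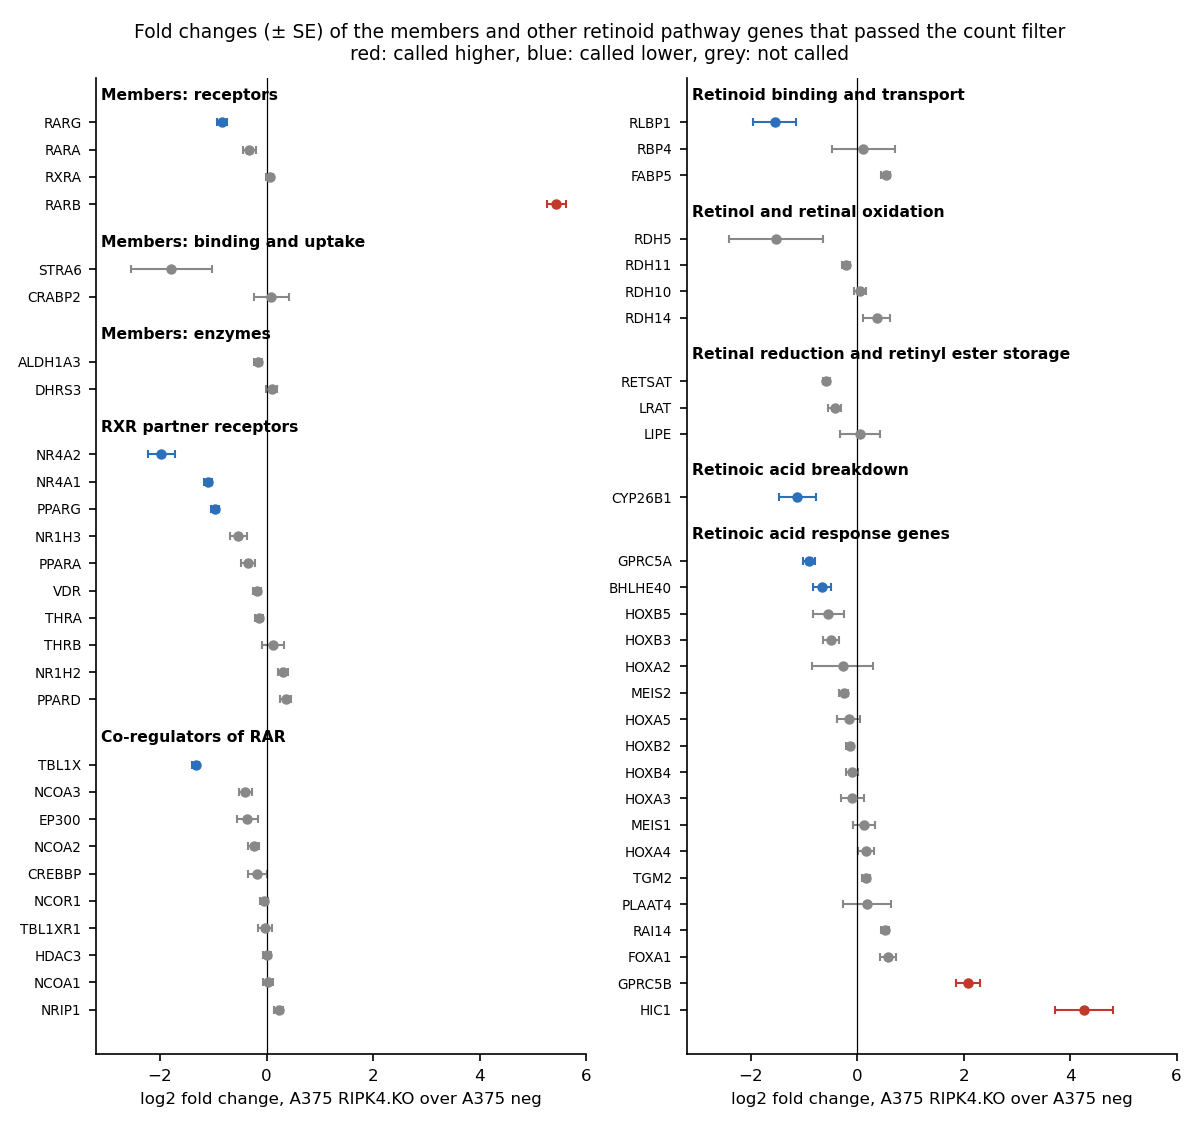
Log2 fold change of A375 RIPK4.KO over A375 neg (x axis; bars: standard error of the fit) for the 8 tested genes of the set and 49 of the other tested pathway genes, grouped by role and sorted within each group. RARB (5.44) and the response genes HIC1 (4.25) and GPRC5B (2.08) are the red points on the right, and the blue points called lower are spread over RARG and 5 of the other lists.

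Genes around RARB were examined next. Of 11 tested protein-coding genes within 2 Mb of it, 1 was called, a share near the 9.22% of all genes tested. It was NEK10, a kinase gene 1.51 Mb away. NEK10 had 7, 15 and 13 counts in the control and 48, 16 and 34 in the knockout (log2 fold change 1.63, standard error 0.47). Replicate 1 of the control was under the limit of 0.408 CPM. NEK10 thus passed the filter through the knockout libraries, and its values are given as a description. The call was lost with a replicate block (1.53), without any A375 neg library (1.39 to 1.82) and without A375 RIPK4.KO replicate 1 (1.20) or 3 (1.63). The direct neighbours differed little: the thyroid hormone receptor gene THRB had a log2 fold change of 0.12 (standard error 0.21), TOP2B one of 0.13 (0.08) and NGLY1 one of −0.12 (0.10). The 7 further genes, UBE2E2, UBE2E1, NKIRAS1, RPL15, NR1D2, OXSM and SLC4A7, lay between −0.19 (SLC4A7) and 0.45 (UBE2E2), and none was called.

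**Figure D5:**
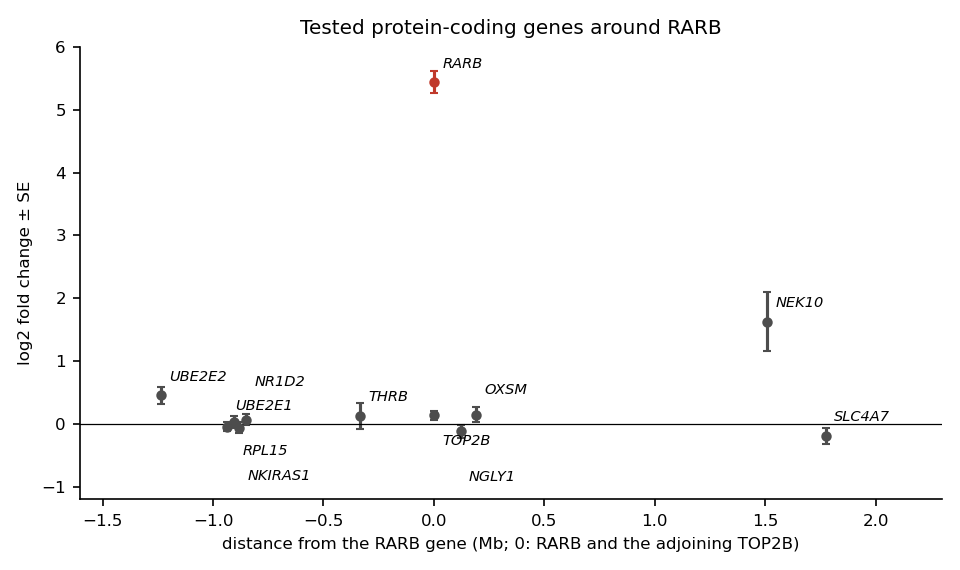
Log2 fold change of A375 RIPK4.KO over A375 neg (y axis; bars: standard error) of RARB (red) and the 11 tested protein-coding genes within 2 Mb of it (grey), against their distance from the RARB gene in Mb (x axis; TOP2B adjoins it). RARB stands at 5.44, NEK10 at 1.63 and the 10 others between −0.19 and 0.45.

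Among 10732 protein-coding genes that averaged 50 raw counts or more, the 3 whose log2 CPM followed RARB most closely over the 6 libraries were HTRA1, SERPINB5 and JUN, each with a Pearson r of 0.999. The 6 libraries form 2 groups, so that r is set mostly by the step between them. HTRA1, a secreted serine protease, had 148, 159 and 148 raw counts in the control and 309, 320 and 335 in the knockout, a log2 fold change of 1.22 (standard error 0.12). SERPINB5, known as maspin, had 28, 23 and 17 counts in the control and 513, 663 and 620 in the knockout (4.85, standard error 0.19). JUN, a subunit of the AP-1 factor, had 920, 1001 and 932 counts in the control and 1760, 1938 and 2000 in the knockout (1.13, standard error 0.07).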

How the data were processed

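Bulk RNA was measured in 3 A375 neg and 3 A375 RIPK4.KO libraries, poly(A)-selected and strand-specific. Raw counts per gene, as whole numbers, were deposited by the authors, whose provider mapped and counted the reads. The submitters' processing notes name cutadapt, FastQC, HISAT2, HTSeq and DESeq2 and the GRCh38.p13 build. Whether strand was used in counting is not given in the sources used here. The table also holds the authors' normalized counts and the results of their own test, which were not used.

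The comparison used edgeR 4.0.16 in R 4.3.3 (TMM, filterByExpr, robust quasi-likelihood test across all genes, Benjamini-Hochberg adjustment over all 14443 genes tested). Called means an adjusted p below 0.05 with a change of at least 1.5-fold. Normalized counts are raw counts brought to the mean TMM-effective library size. The fit was tested on counts drawn with known changes. Totals were 21882863 to 26694140 counts, and 0 counts in a library allow up to 3, or 0.113 to 0.134 CPM. Such limits cover counting error only.

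Positions are from RefSeq (GRCh38.p14) and lengths from GENCODE 29. Promoter windows were found for 10848 of the genes tested. Named were the 9 genes, all called genes of the pathway lists, a few fixed genes (RIPK4, RXRG, FABP5, CYP26A1, CYP26B1, ALDH1A1, RDH10, LRAT), tested protein-coding genes within 2 Mb of RARB and the 3 most like RARB. Other names serve to illustrate a count, and were chosen after their values were seen. The 9 genes and the lists were chosen with earlier results of these data known. Alternatives were DESeq2 1.42.0, its size factors in edgeR, no filter, a replicate block, a correction for gene length, no limit on the fold change and leaving out each library. The longest coding transcript as length and the sum of the RXRB rows were added after seeing the data. Some genes are not reported here. Python 3.11.15 with matplotlib 3.10.9 drew the figures.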

Additional observations from a re-analysis of the deposited data

How the results depend on the processing

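Of the alternatives, dropping the limit on the fold change moved the counts most, from 1331 to 2545 of all genes tested and from 10 to 18 pathway genes, while 2 of the 9 retinoic acid genes were called either way. Leaving out each library in turn gave 1113 to 1377 called genes, 2 to 3 of the 9 genes, 7 to 10 pathway genes and a log2 fold change of RARB of 5.25 to 5.57. The third of the 9 genes was STRA6, called without A375 RIPK4.KO replicate 1. Leaving out a library turned the sign of small log2 fold changes of 5 genes that were never called, with ranges of −0.074 to 0.18 (CRABP2), −0.0037 to 0.099 (RDH10), −0.086 to 0.0050 (UBE2E1), −0.084 to 0.12 (RPL15) and −0.0082 to 0.17 (NR1D2). The cause was not tested.

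The groups share replicate numbers, but the deviations of same-numbered libraries from their group means correlated at 0.08, 0.04 and −0.01 across genes, so the numbers were not taken as pairs. With a replicate block, 1299 genes were called, 3 of the 9 genes (STRA6 in addition), 10 pathway genes, and RARB had a log2 fold change of 5.45. The planned use of a RefSeq exon-union length for levels per kilobase was not run, since the RefSeq table used here holds gene spans without exons. Depth limits CRABP2, CYP26A1, ALDH1A1 and RXRG, with at most 27 counts in any library, and the annotation limits RXRB. It also limits the pathway genes GPS2, DGAT1 and DHRS4, which are listed as 2 rows each. Their named rows did not pass the filter on low counts. The other row of GPS2 held 63 to 1172 counts per library, so no low level is read for these genes.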
